A study of Mus musculus with 6 samples.

Results

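The genes of the Fc receptors were examined cell by cell in mouse kidneys that were either naive, under rejection, or tolerized. The genes were Fcgr1, Fcgr2b, Fcgr3, Fcgr4, Fcer1g, and Fcgrt, which were chosen by name and are 6 of the 28208 genes listed for all kidneys. Unique molecular identifiers (UMIs, 1 for each captured RNA molecule) were counted in droplets, with 1 library per kidney and 2 kidneys per group. Naive kidneys were untransplanted kidneys of male C57BL/6 (B6) mice with a stated age of 10 to 12 weeks. Rejecting kidneys were BALB/c [I-Ad] kidneys grafted into male B6 recipients that had lost both of their own kidneys, with a stated age of 6 to 7 weeks and no further treatment. Tolerized kidneys came from the same transplantation, in recipients that had also been given BALB/c splenocytes treated with ethylenecarbodiimide (ECDI-SP) by vein 7 days before and 1 day after transplantation. All transplanted kidneys were taken on day 15. In these grafts the kidney itself is of the BALB/c strain, whereas cells that entered from the recipient are of the B6 strain, and the counts used here do not tell the strains apart. Naive and transplanted kidneys therefore differ in strain and age as well as in transplantation, and may differ in sex. Their matrices also differ in the genes listed, the lowest UMI count, and shared barcodes, as given below.

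Fc receptors bind the constant part of antibodies and carry its signal into the cell. In the mouse, Fcgr1 encodes the high-affinity IgG receptor CD64, and Fcgr3 and Fcgr4 encode the activating receptors CD16 and CD16-2. Fcer1g encodes the FcRγ chain, whose activation motif signals for all 3 of these receptors and also for the IgE receptor and for some receptors of NK cells. Fcgr2b encodes the inhibitory receptor CD32b, which is the Fc-gamma receptor of B cells and also sits on myeloid cells. Fcgrt encodes the heavy chain of FcRn, which pairs with beta-2 microglobulin and returns IgG and albumin from endosomes to the blood, in endothelium and in the proximal tubule among other places. Fcgr1 is a textbook target of interferon gamma in myeloid cells.

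On the GRCm38 assembly (GENCODE release M21), Fcgr2b (chr1:170958617-170976547, minus strand), Fcgr4 (chr1:171018920-171029761, plus strand), Fcgr3 (chr1:171051174-171064935, minus strand), and Fcer1g (chr1:171229572-171234365, minus strand) lie within 275749 bases of chromosome 1. Fcgr1 (chr3:96282909-96293969, minus strand) and Fcgrt (chr7:45092990-45103851, minus strand) lie apart from them. The antisense gene Gm38204 overlaps 3175 bases of Fcgr2b, and the antisense gene Gm45669 overlaps 5331 bases of Fcgrt. Use of the strand in counting is not given in the sources used here, so reads of these overlaps could not be assigned with certainty. Fcgr2b and Fcgr3 are alike in their antibody-binding exons, and how the counting divided reads there is not given either.

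The 250 bases before the RefSeq start (GRCm38.p6) are shown for 3 of the genes, written 5′ to 3′ on the strand of the gene. Fcgr1 was the activating receptor with the largest fold change between the groups in macrophage-like and monocyte-like cells. Fcgr4 is an activating receptor that was higher in 1 monocyte-like cluster than in the other, and Fcgr2b is the inhibitory receptor. Capitals mark a match to a short form of the interferon-stimulated motif ISRE (GAAA, any 2 bases, and GAAA). Both strands were searched. Only the first listed RefSeq start of each gene was used. The windows of Fcgr2b and Fcgr3 (chr1:171059404-171059653) lie wholly within the GENCODE bounds of these genes given above. For these genes the start in RefSeq thus differs from that in GENCODE.
Fcgr1 (chr3:96293970-96294219, minus strand): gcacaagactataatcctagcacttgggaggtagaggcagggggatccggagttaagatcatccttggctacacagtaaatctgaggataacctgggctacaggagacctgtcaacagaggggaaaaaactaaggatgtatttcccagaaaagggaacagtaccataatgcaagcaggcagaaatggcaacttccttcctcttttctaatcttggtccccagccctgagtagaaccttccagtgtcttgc
Fcgr4 (chr1:171018676-171018925, plus strand): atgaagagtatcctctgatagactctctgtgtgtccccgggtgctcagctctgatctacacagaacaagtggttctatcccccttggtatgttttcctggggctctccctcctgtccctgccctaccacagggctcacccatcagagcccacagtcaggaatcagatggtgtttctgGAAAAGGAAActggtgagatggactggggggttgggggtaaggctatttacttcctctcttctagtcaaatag
Fcgr2b (chr1:170976072-170976321, minus strand): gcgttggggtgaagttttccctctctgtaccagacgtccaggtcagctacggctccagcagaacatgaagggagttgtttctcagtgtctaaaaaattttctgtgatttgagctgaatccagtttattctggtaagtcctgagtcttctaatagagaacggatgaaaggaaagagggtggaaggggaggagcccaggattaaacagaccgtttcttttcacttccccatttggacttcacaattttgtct
The window of Fcgr4 held an ISRE-like match at 73 to 64 bases before the start. The motif was not found in the windows of Fcgr1, Fcgr2b, Fcgr3, Fcer1g, or Fcgrt. Among the windows of 27025 genes, 3.04% held an ISRE-like match. A match describes letters in this window and does not show that a factor binds there.

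The libraries held 34874702 to 96803926 UMIs, and 45667 cells remained after filters and removal of doublets. Rejecting kidneys had a median of 2535 and 3566 UMIs per cell, against 6136 and 7292 for tolerized kidneys, so that shares of cells with a UMI are given after each cell was thinned to 1000 UMIs. Classes of cells were rebuilt by clustering, in which the 6 genes took no part, and were named from marker genes with the ending "-like". A level is given in counts per 1e6 (CPM), the UMIs of a gene scaled to 1e6 UMIs of that class in that kidney, and since the counts are of RNA molecules tagged at 1 end they were not scaled to gene length. For each class, summed counts of the 2 transplanted groups entered edgeR's quasi-likelihood test, and the false discovery rate (FDR) was adjusted over all genes of the class. The study's supplement speaks of 2 experiments, but the labels do not tie the numbers of the kidneys to them, so p values measure the spread between these kidneys. The first rejecting kidney stood apart, with 1960 of the 2297 cells that could not be named and with nearly all cells of a shallow T cell-like cluster.

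None of the Fc receptor genes passed an FDR of 0.05 between rejecting and tolerized kidneys in any of 11 classes. This was 0 of 43 pairs of gene and class, where 64 of 103317 (0.0619%) passed over all genes. By DESeq2, 0 of the pairs passed, where 512 (0.496%) did over all genes. At an unadjusted p under 0.05 there were 11 of 43 pairs (25.6%), against 8056 of 103317 (7.80%) over all genes. Of these pairs, 1 was lower in macrophage-like cells, and 1 was higher and 1 lower in monocyte-like cells. In T cell-like cells 1 was higher and 3 were lower, and each tubular class had 1 that was lower. All classes of a kidney share 1 library, so the pairs are not independent.

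**Figure D1:**
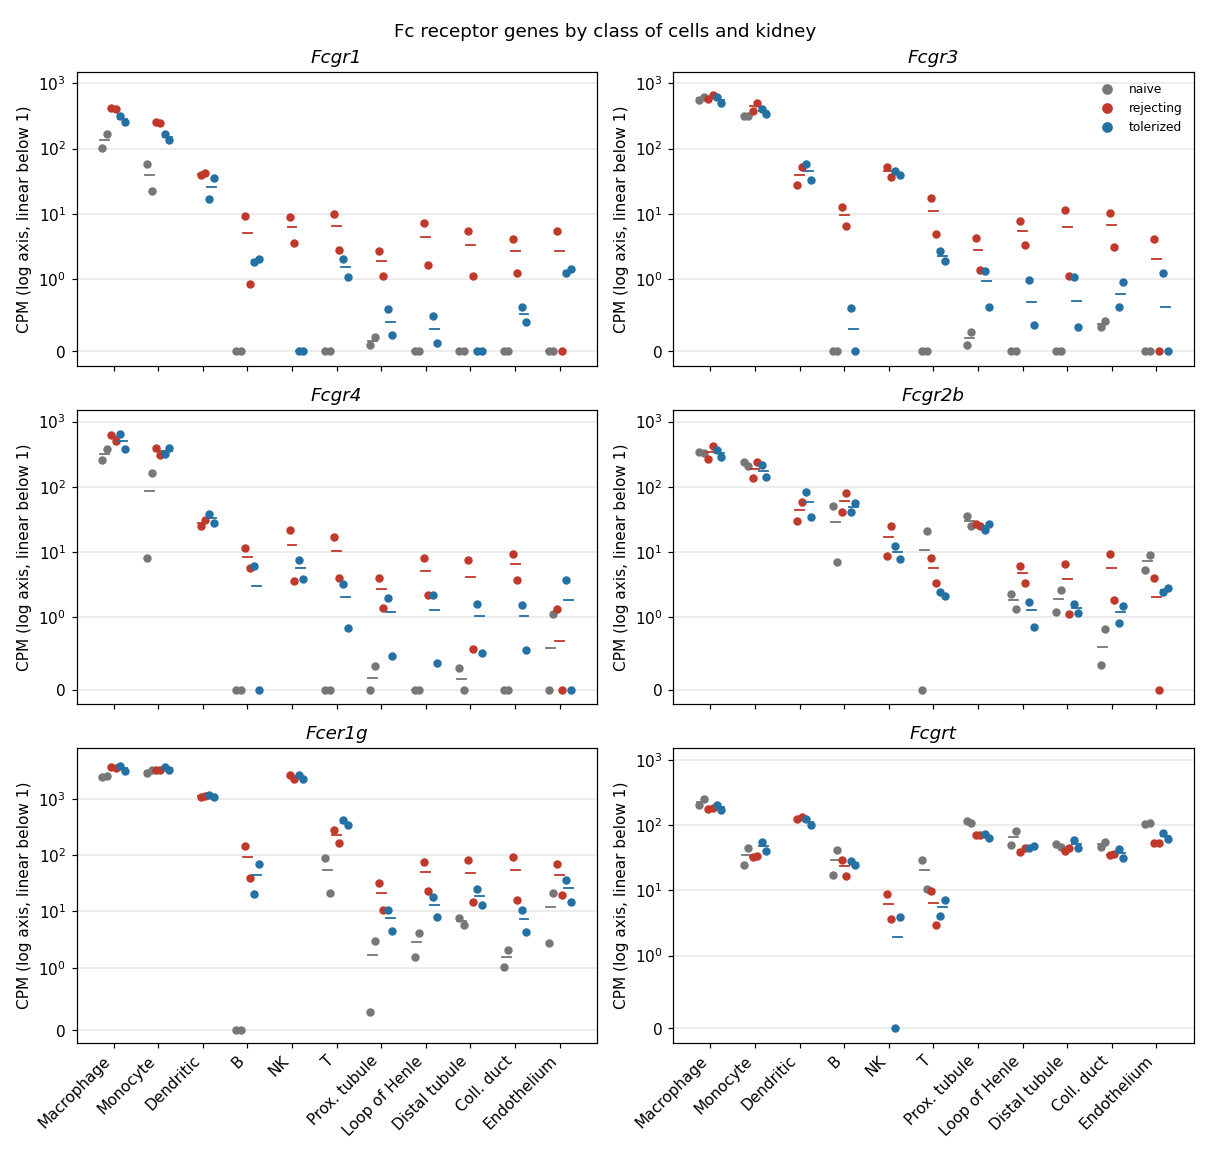
Level of the 6 Fc receptor genes (CPM, log axis that is linear below 1) in 11 classes of cells. Each point is 1 kidney with at least 20 cells of the class, gray for naive, red for rejecting, and blue for tolerized, and a bar is the mean of the 2 kidneys. Fcer1g reached 2506 to 3955 CPM in macrophage-like cells, and Fcgr2b reached 22.2 to 35.3 CPM in proximal tubule-like cells, above every other tubular class.

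Among the activating receptors, Fcgr1 was lower in macrophage-like cells of both tolerized kidneys than in those of both rejecting kidneys. Its level was 419 and 406 CPM under rejection, 312 and 257 CPM in the tolerized kidneys, and 101 and 170 CPM in the naive kidneys, where 37 and 99 such cells were found. Rejecting and tolerized kidneys did not overlap. The log2 fold change of tolerized over rejecting was -0.46 (SE 0.17), with an unadjusted p of 0.0304 and an FDR of 0.817, so the difference did not pass. Of 11423 genes tested in macrophage-like cells, 0.0% passed by edgeR and 0.280% by DESeq2, whereas the unadjusted p was under 0.05 for 667 (5.84%). A gap between the groups, with tolerized kidneys lower, was seen for 24.3% of the genes.

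In monocyte-like cells, Fcgr1 was 259 and 250 CPM in the rejecting kidneys against 168 and 135 CPM in the tolerized kidneys. Again there was no overlap, as for 21.0% of all genes in this direction. The log2 fold change was -0.71 (SE 0.19, unadjusted p = 0.00516, FDR = 0.438). Of 9083 genes tested, 0.0% passed by edgeR and 0.363% by DESeq2, and 7.16% had an unadjusted p under 0.05. In naive kidneys, Fcgr1 was 57.5 and 22.04 CPM in 43 and 47 monocyte-like cells, below all transplanted kidneys. These levels came from 7 and 3 UMIs, where 3 UMIs would be 24.6 and 22.04 CPM. The share of all genes below all transplanted kidneys was not counted. After thinning, a Fcgr1 UMI was found in 33.3% and 32.2% of macrophage-like cells in rejecting kidneys, against 25.2% and 21.9% in tolerized kidneys. Cells under 1000 UMIs were left out, which kept 1324 of 1397 and 1396 of 1423 cells against 1056 of 1100 and 346 of 360. In proximal tubule-like cells, which should lack the gene, these shares were 0.247% and 0.248% against 0.0938% and 0.0338%. Before thinning, the shares in macrophage-like cells overlapped, with 76.5% and 82.4% against 80.6% and 70.6%, at median depths of 8499 and 8426 against 14640 and 12080 UMIs per cell.

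The macrophage-like cells fell into a cluster led by Ccl8 and C1qa and a cluster led by Cxcl2 and Mmp13, and the monocyte-like cells into a cluster led by Treml4 and Ear2 and a cluster led by Chil3 and Ly6c2. Each cluster was fitted on its own, which was added after the classes had been seen. In the C1qa-led cluster, Fcgr1 was 423 and 410 CPM in rejecting kidneys against 314 and 262 CPM in tolerized kidneys. In the Cxcl2-led cluster it was 333 and 255 against 186 and 150 CPM. In the Treml4-led monocytes it was 174 and 128 against 93.5 and 69.7 CPM, and in the Chil3-led monocytes 314 and 314 against 218 and 229 CPM. Rejecting kidneys were above tolerized kidneys in each of the 4 clusters, as was the case for 24.5% and 20.2% of all genes in these macrophage-like clusters and for 20.5% and 22.0% of all genes in these monocyte-like clusters. No cluster passed, with an FDR of 0.779 to 0.895 in the macrophage-like clusters and of 0.670 and 0.878 in the monocyte-like clusters. The clusters of a kidney share 1 library and are not replicates. Of the naive macrophage-like cells, 35 of 37 and 98 of 99 lay in the Cxcl2-led cluster, whereas most of those in transplanted kidneys lay in the C1qa-led cluster (1137, 1284, 959, and 283 cells). In the Cxcl2-led cluster alone, Fcgr1 was 98.5 and 161 CPM in naive kidneys, which overlapped the tolerized kidneys and lay below both rejecting kidneys. In that cluster 28.4% of the cells were called doublets and left out, and the rest had a median of 1900 UMIs. With a coarser clustering (resolution 0.8), a Cxcl2-led cluster held 34 and 96 cells of the naive kidneys. It held 0 cells of both rejecting kidneys and 0 and 3 cells of the tolerized kidneys. Naive and transplanted cells of the Cxcl2-led cluster may thus be unlike, here and in later comparisons, which was not tested.

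**Figure D2:**
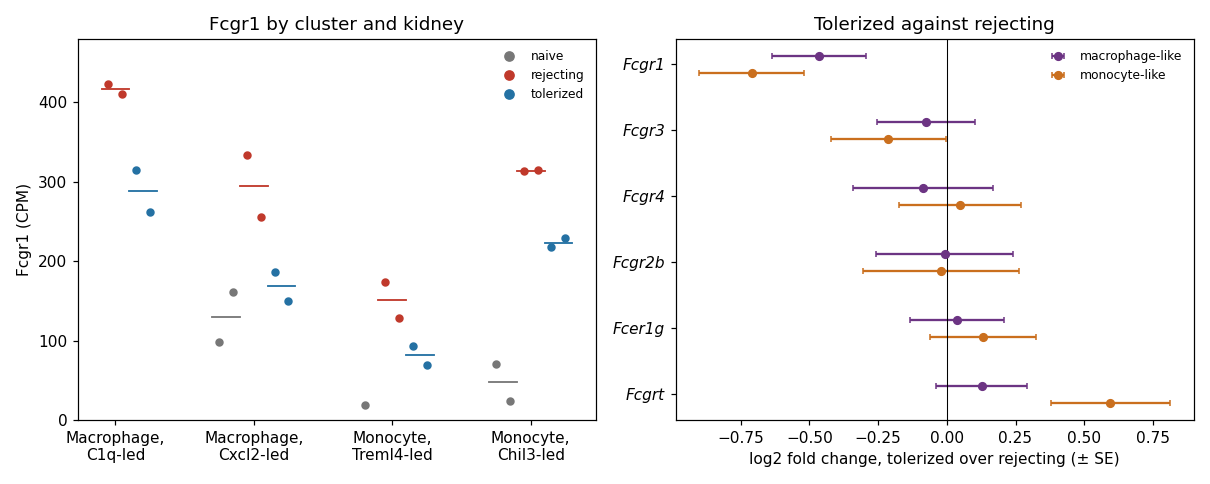
Left, Fcgr1 level (CPM) in the macrophage-like and monocyte-like clusters, each point 1 kidney with at least 20 cells and each bar the mean of 2. Right, log2 fold change of tolerized over rejecting kidneys with its standard error for the 6 genes in both classes (n = 2 kidneys per group). Fcgr1 lies left of 0 in both classes, at -0.46 and -0.71, and the other genes lie between -0.21 and 0.59.

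Fcgr3 did not pass in either class. In macrophage-like cells it was 580 and 659 CPM in rejecting kidneys, 615 and 501 CPM in tolerized kidneys, and 559 and 616 CPM in naive kidneys. The groups overlapped, and the log2 fold change of tolerized over rejecting was -0.08. In monocyte-like cells it was 377 and 507 against 407 and 334 CPM, with a log2 fold change of -0.21. In the Cxcl2-led cluster alone, Fcgr3 was 603 and 624 CPM in naive kidneys, above the 289 to 376 CPM of the transplanted kidneys. The share of all genes with such a gap was not counted.

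Fcgr4 was 631 and 512 CPM in macrophage-like cells of rejecting kidneys and 644 and 384 CPM in those of tolerized kidneys, with a log2 fold change of -0.09. In monocyte-like cells it was 388 and 313 against 315 and 390 CPM, with a log2 fold change of 0.05. The groups overlapped in both classes. The 2 monocyte-like clusters differed more than the groups did. In the Treml4-led cluster, Fcgr4 was 780, 717, 636, and 577 CPM in the rejecting and tolerized kidneys in turn, and in the Chil3-led cluster it was 99.2 to 135 CPM. The level was 4.91 to 7.23 times as high in the Treml4-led cluster within a kidney. Fcgr1 had the opposite order, at 0.304 to 0.555 times its level in the Chil3-led cluster. These are descriptions of clusters built from the same cells, and no test was made between clusters.

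Fcgr2b, the inhibitory receptor, varied within the groups as much as between them. In macrophage-like cells it was 268 and 424 CPM in rejecting kidneys, 372 and 282 CPM in tolerized kidneys, and 347 and 330 CPM in naive kidneys. Its log2 fold change of tolerized over rejecting was -0.01 (SE 0.25, FDR = 0.999). In monocyte-like cells it was 136 and 238 against 214 and 142 CPM, with a log2 fold change of -0.02. In both classes the second rejecting and the first tolerized kidney were the higher ones.

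The balance of inhibitory and activating receptors was measured as the share of Fcgr2b among the UMIs of Fcgr1, Fcgr2b, Fcgr3, and Fcgr4. In macrophage-like cells this share was 14.1% and 21.2% in rejecting kidneys, 19.1% and 19.8% in tolerized kidneys, and 27.4% and 21.95% in naive kidneys. The mean of the tolerized kidneys was 1.81 percentage points above that of the rejecting kidneys, with an exact permutation p of 1. In monocyte-like cells it was 11.7% and 18.2% in rejecting, 19.4% and 14.2% in tolerized, and 38.2% and 29.2% in naive kidneys, a difference of 1.85 points (exact permutation p = 0.667). In dendritic cell-like cells it was 24.3% and 31.9% against 42.5% and 26.1%, a difference of 6.19 points (exact permutation p = 0.667). All tests were two-sided, and with 2 kidneys against 2 the smallest p is 0.333, so no difference in this balance could have passed. In naive kidneys the share was above that of all transplanted kidneys in both macrophage-like and monocyte-like cells. In macrophage-like cells the gap lay within the counting error. A 95% interval from UMI counts alone was 18.4% to 26.0% for the second naive kidney and 20.7% to 21.7% for the second rejecting kidney. In the Cxcl2-led macrophages alone the share was 28.4% and 22.02% in naive kidneys and 15.1% to 27.9% in transplanted kidneys, which overlapped.

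**Figure D3:**
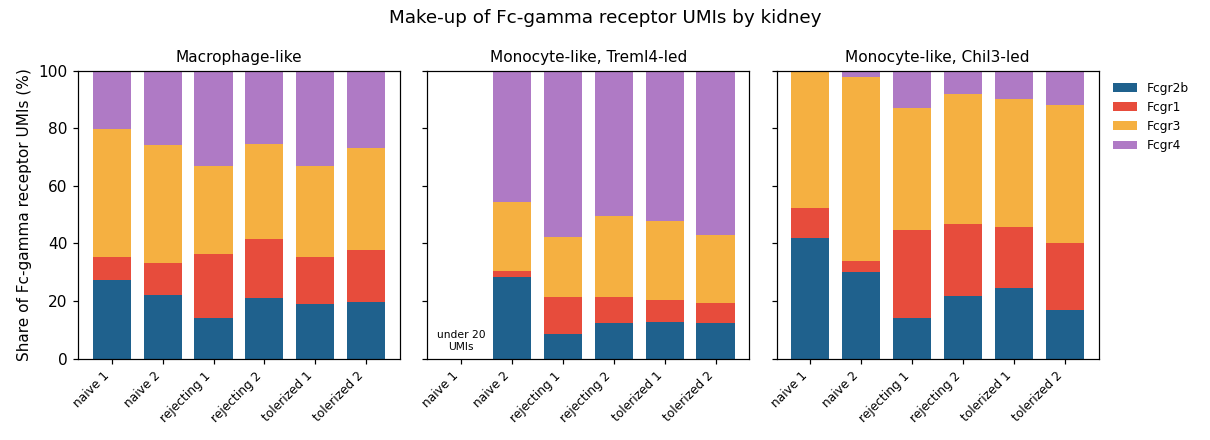
Share of each Fc-gamma receptor gene among the UMIs of all 4 (%), as stacked bars that add up to 100, for each kidney in macrophage-like cells and in the 2 monocyte-like clusters. Fcgr2b takes 14.1% to 21.2% in macrophage-like cells of transplanted kidneys, and Fcgr4 is the broadest band in the Treml4-led monocytes of all transplanted kidneys.

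Conventional dendritic cell-like cells held little of the activating receptors. Fcgr1 was 39.95 and 42.9 CPM in rejecting kidneys against 16.95 and 35.1 CPM in tolerized kidneys, and Fcgr2b was 29.6 and 58.9 against 83.9 and 34.2 CPM. Fcer1g was present at 1113 and 1120 against 1193 and 1086 CPM. Fcgrt was 123 and 134 against 124 and 101 CPM, which is above its level in monocyte-like cells. The lowest FDR of the 6 genes was 0.964, where 0.129% of 7759 genes passed.

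In B cell-like cells Fcgr2b was the Fc-gamma receptor with most UMIs in every transplanted kidney, at 55.4%, 85.9%, 83.1%, and 96.5% of the 4 genes in the first and second rejecting and the first and second tolerized kidney. Its level was 41.2 and 79.6 CPM in rejecting and 41.8 and 56.6 CPM in tolerized kidneys, and the log2 fold change was -0.20. Fcer1g was 146 and 40.3 against 20.6 and 70.0 CPM in these cells. Its ratio to the UMIs of C1qa, C1qb, and C1qc was 1.58 to 10.3 times that in macrophage-like cells of the same kidney, and the summed level of the 11 macrophage markers in B cell-like cells was 1495 and 843 CPM in rejecting and 475 and 2183 CPM in tolerized kidneys. Their part in the Fcer1g level was not tested. The log2 fold change of Fcer1g, -0.97, did not pass, where 0.0% of 7303 genes passed by edgeR and 0.329% by DESeq2. It rested on single kidneys: it was -1.66 without the second rejecting kidney, -2.09 without the second tolerized kidney, and 0.26 without the first rejecting kidney.

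The signaling chain Fcer1g was the most abundant of the 6 genes in myeloid and NK cell-like cells. In macrophage-like cells it was 3684 and 3642 CPM in rejecting, 3955 and 3193 CPM in tolerized, and 2506 and 2637 CPM in naive kidneys, with a log2 fold change of tolerized over rejecting of 0.04. In the Cxcl2-led cluster alone, naive kidneys at 2437 and 2577 CPM lay within the 1447 to 2768 CPM of the transplanted kidneys. In monocyte-like cells it was 3327 and 3267 against 3676 and 3359 CPM, a log2 fold change of 0.13. Both tolerized kidneys were above both rejecting kidneys there, as for 15.8% of all genes in this direction. NK cell-like cells reached 2651 and 2295 CPM in rejecting kidneys against 2659 and 2302 CPM in tolerized kidneys, with a log2 fold change of 0.12 (FDR = 0.959). Fcgr3, the Fc-gamma receptor of mouse NK cells, was 53.0 and 36.0 against 45.2 and 39.2 CPM in these cells, below its level in every macrophage-like sum. For 4383 genes in NK cell-like cells, 0.0913% passed.

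In T cell-like cells, the log2 fold change of Fcer1g was larger than in any myeloid class, without a test between classes. It was 286 and 169 CPM in rejecting kidneys against 419 and 345 CPM in tolerized kidneys. There was no overlap, as for 12.3% of genes in this direction. The log2 fold change was 0.89 (SE 0.27), with an unadjusted p of 0.00893 and an FDR of 0.390, so that it did not pass, as was the case for 0.0% of 11332 genes by edgeR. By DESeq2 0.591% passed, Fcer1g not among them, and 9.20% had an unadjusted p under 0.05. In T cell-like cells without a UMI of 9 NK cell genes, the log2 fold change was 0.37 (FDR = 0.683), and without a UMI of 7 myeloid genes it was 1.23. The latter kept 314 of 3321 and 1290 of 2521 cells in rejecting kidneys against 838 of 1659 and 603 of 895 in tolerized kidneys. NK cell markers moved in the same direction in T cell-like cells, with a summed level of 190 and 237 CPM for 11 markers in rejecting kidneys and 520 and 465 CPM in tolerized kidneys, and 10 or 11 of the 11 markers had a UMI in each kidney.

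The fold change was then taken within clusters of T cells. In the cluster led by Cd8b1, Cd8a, and Gzmb, which are genes of cytotoxic T cells, Fcer1g was 311 and 226 CPM in rejecting kidneys against 662 and 694 CPM in tolerized kidneys. Both tolerized kidneys stood well above both rejecting kidneys, as for 12.3% of all genes in this cluster. The log2 fold change was 1.44 (SE 0.22, unadjusted p = 5.89e-05). Its FDR was 0.0613 by edgeR, where 5 of 9648 genes (0.0518%) passed, and it was 5.78e-06 by DESeq2, where 0.508% passed. Of the cells in rejecting kidneys, 42 of 511 and 718 of 1433 had no UMI of the 7 myeloid genes. In tolerized kidneys these were 466 of 896 and 207 of 303. Fcer1g passed in these cells (log2 fold change 1.57, FDR = 0.0271), with little of the first rejecting kidney left to compare. It just missed in cells without a UMI of the 9 NK cell genes (log2 fold change 1.29, FDR = 0.0890). Whether Fcer1g passed with 1 kidney left out depended on the kidney. Over 14 alternatives, among them fits without 1 kidney, its log2 fold change was 1.22 to 1.69. In the Tcf7-led cluster Fcer1g was 135 and 98.3 against 151 and 192 CPM (log2 fold change 0.76, FDR = 0.498). Its log2 fold change there was -1.67 in cells without a UMI of the 9 NK cell genes. In the Foxp3-led cluster, whose leading genes are those of regulatory T cells, Fcer1g was 85.5 and 20.5 against 22.1 and 9.50 CPM. The log2 fold change was -1.54 (FDR = 0.621), and -2.24 to -0.13 over 13 alternatives. A further cluster led by Cd8a, Gzmb, and Lag3 held 1984 of the 3321 T cell-like cells of the first rejecting kidney and 36 to 104 cells of each other transplanted kidney, at a median of 941 UMIs per cell. Fcer1g was 433 CPM in that kidney, 61.7 CPM in the second rejecting kidney, and 268 and 69.9 CPM in the tolerized kidneys, and it was not fitted alone. Whether the clusters differed from one another in this contrast was not tested, and these 3 fits were added after the data had been seen.

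Most Fcer1g UMIs of the Cd8b1-led cluster came from a minority of its cells. Cells with at least 3 Fcer1g UMIs, a limit chosen after the data were seen, were 58 of 511 (11.4%) and 120 of 1433 (8.37%) in the rejecting kidneys and 216 of 896 (24.1%) and 86 of 303 (28.4%) in the tolerized kidneys. They held 79.6% to 97.8% of the Fcer1g UMIs of the cluster. Of these cells, 99.5% to 100% had a UMI of Cd3d, Cd3e, or Cd3g and 93.1% to 98.2% one of Cd8a. A UMI of an NK cell gene was found in 25.9% and 16.7% of them in rejecting and in 51.9% and 37.2% in tolerized kidneys, against 18.2%, 12.0%, 30.4%, and 27.7% of the cells with no Fcer1g UMI. These counts and shares were not thinned, and the cells with at least 3 Fcer1g UMIs had a median of 3789 and 3124 UMIs in rejecting kidneys against 5700 and 6178 in tolerized kidneys, whose part in the difference between the groups was not tested. C1q UMIs were found in 77.6%, 31.7%, 17.6%, and 9.30% of them and in 67.2%, 25.4%, 21.4%, and 14.9% of the cells with none.

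Within the Cd8b1-led cluster, genes higher in these cells than in those with no Fcer1g UMI in all 4 kidneys included Xcl1, a chemokine of NK and CD8 T cells, the NK cell receptor gene Klre1, and Cd7. Xcl1 was 522 against 131, 484 against 220, 1018 against 213, and 1213 against 558 CPM in the first and second rejecting and the first and second tolerized kidney. Those lower included Ly6c2, Ifi27l2a, and Gzmk, a granzyme gene. These genes were chosen after their values were seen, and no test was made. With cells thinned to 1000 UMIs, 16.5% and 10.8% of the cluster had an Fcer1g UMI in rejecting kidneys, against 22.1% and 26.4% in tolerized kidneys. In loop of Henle-like cells, which should lack the gene, the shares were 9.20% and 2.67% against 2.27% and 1.2%, at median depths of 2028 and 3410 against 5508 and 12270 UMIs per cell. Before thinning, the shares in the Cd8b1-led cluster were 33.3% and 17.1% against 32.1% and 35.6%, and overlapped, at median depths of 3714 and 2857 against 4806 and 5463 UMIs per cell. Thinning kept 501 of 511 and 1414 of 1433 cells against 892 of 896 and 298 of 303. In the whole T cell-like class the thinned shares, 19.2% and 8.67% against 15.02% and 13.5%, also overlapped, with 2117 of 3321 and 2318 of 2521 cells kept against 1622 of 1659 and 871 of 895.

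**Figure D4:**
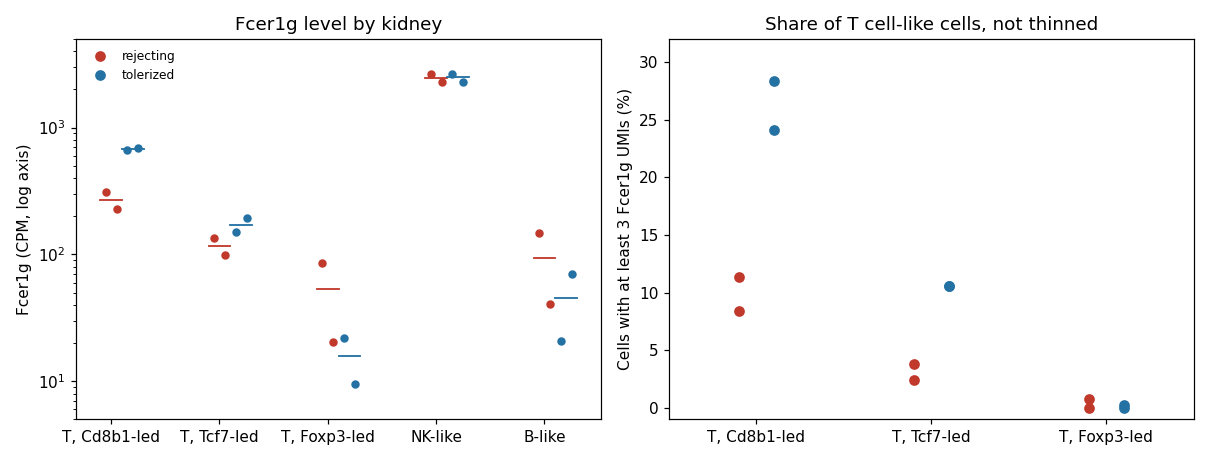
Left, Fcer1g level (CPM, log axis) in 3 T cell-like clusters and in NK and B cell-like cells, each point 1 transplanted kidney and each bar the mean of 2. Right, share of cells with at least 3 Fcer1g UMIs (%, cells not thinned). In the Cd8b1-led cluster the tolerized kidneys lie at 24.1% and 28.4% and the rejecting kidneys at 11.4% and 8.37%.

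The Fc-gamma receptors were scarce in T cell-like cells and had the opposite direction. The log2 fold change of tolerized over rejecting was -1.82 for Fcgr1, -2.10 for Fcgr3, and -2.07 for Fcgr4, each with an unadjusted p under 0.05 and none past the FDR. Whether Fcgr3 or Fcgr4 passed with 1 kidney left out depended on the kidney, and neither passed without the first rejecting kidney. In the fits where either passed, more of all genes passed as well than with all kidneys. The 11 macrophage markers moved with these receptors. Their summed level was 1176 and 241 CPM in rejecting and 166 and 87.9 CPM in tolerized T cell-like cells. All 11 markers had a UMI in 3 of the kidneys and 10 in the second tolerized kidney, where Mrc1 was at 0. Their part in these values was not tested.

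In the tubule, Fcgr2b was found in the proximal segment. Its level in proximal tubule-like cells was 35.3 and 25.5 CPM in naive kidneys, 27.2 and 24.7 CPM under rejection, and 22.2 and 27.3 CPM in tolerized kidneys, from 179 to 986 UMIs per kidney. Fcgr3, its neighbor on chromosome 1, was at 0.0960 and 0.264 CPM in naive, 4.25 and 1.38 CPM in rejecting, and 1.33 and 0.608 CPM in tolerized kidneys. In the 3 other tubular classes (loop of Henle, distal convoluted tubule, and collecting duct) Fcgr2b was 0.34 to 9.38 CPM. In the transplanted kidneys the level of Fcgr2b in the proximal tubule lay below that of B cell-like (41.2 to 79.6 CPM), dendritic cell-like (29.6 to 83.9 CPM), and macrophage-like cells.

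The ratio of Fcgr2b to C1q UMIs in proximal tubule-like cells was 16.3 and 24.9 times that of macrophage-like cells in the same kidney for the rejecting kidneys, and 33.1 and 140 times for the tolerized kidneys. For Fcgr3 the same quotient was 1.18 and 0.897 in rejecting kidneys against 1.196 and 1.76 in tolerized kidneys, and for Fcer1g it was 1.23 to 2.06. The quotient of Fcgr2b was thus above those of Fcgr3 and Fcer1g in every transplanted kidney, and the cause was not tested. In naive kidneys, proximal tubule-like cells gave 736 and 387 UMIs of Fcgr2b beside 22 and 74 of C1q. The quotient for Fcgr2b was 1.196 to 4.13 in the loop of Henle, 1.35 to 7.02 in the distal convoluted tubule, and 1.84 to 5.86 in the collecting duct, from 2 to 12 UMIs of Fcgr2b per kidney. After thinning, a Fcgr2b UMI was found in 2.93% and 2.21% of naive proximal tubule-like cells, 2.83% and 2.23% of those under rejection, and 1.95% and 2.76% of those tolerized, against 0.169% to 1.11% of loop of Henle-like cells. Before thinning, the shares in the proximal tubule were 9.004% to 28.2% at median depths of 3293 to 10480 UMIs, and thinning kept all cells of the naive kidneys, 958 of 993 and 1021 of 1123 under rejection, and 3428 of 3541 and 2263 of 2396 of those tolerized.

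Between tolerized and rejecting kidneys, Fcgr2b in proximal tubule-like cells had a log2 fold change of 0.19 (FDR = 0.824), and the groups overlapped. In this class 0.0% of 12632 genes passed by edgeR and 1.46% by DESeq2, and 11.1% had an unadjusted p under 0.05. The level differed among the proximal tubule-like clusters of at least 100 cells, from 14.2 to 58.9 CPM per cluster and kidney, and was highest in a cluster found almost wholly in naive kidneys, at 58.9 and 43.4 CPM. In that cluster 28.7% and 18.7% of the cells of the naive kidneys had a Fcgr2b UMI before thinning, and 0 and 4 UMIs of Fcgr3 were counted in all.

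**Figure D5:**
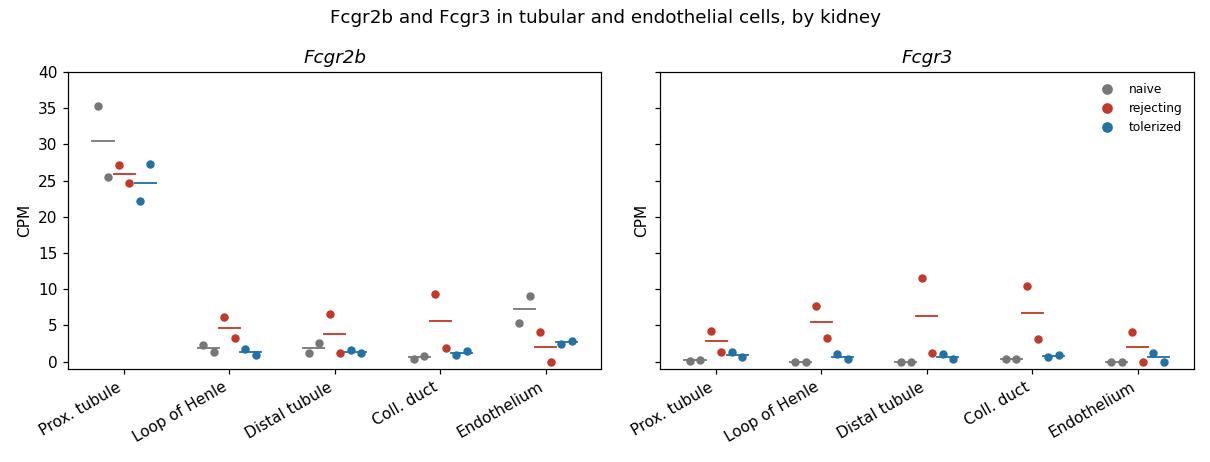
Level of Fcgr2b and Fcgr3 (CPM) in tubular and endothelial cells, each point 1 kidney with at least 20 cells of the class and each bar the mean of 2. In proximal tubule-like cells Fcgr2b lies between 22.2 and 35.3 CPM in all 6 kidneys, and Fcgr3 at or below 4.25 CPM.

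Fcer1g was low in the tubular classes. Its level was lower in both tolerized kidneys than in both rejecting kidneys in loop of Henle-like and collecting duct-like cells. It overlapped between the groups in distal convoluted tubule-like cells. In proximal tubule-like cells it also overlapped, with 31.9 and 10.49 CPM under rejection against 10.58 and 4.54 CPM when tolerized. In loop of Henle-like cells it was 76.0 and 23.6 CPM in rejecting and 18.4 and 8.03 CPM in tolerized kidneys, a gap with a log2 fold change of -1.99 (SE 0.45, FDR = 0.0888), where 0.465% of 9675 genes passed and 18.5% had both tolerized kidneys below both rejecting kidneys. The summed level of 11 macrophage markers in the same cells was 932 and 538 CPM in rejecting and 403 and 271 CPM in tolerized kidneys, and all 11 had a UMI but for Mrc1 in the first tolerized kidney. In loop of Henle-like cells without a UMI of the 7 myeloid genes, the log2 fold change of Fcer1g was -0.45 (SE 0.59), from 40 and 122 cells in rejecting kidneys against 174 and 322 in tolerized kidneys, so that little of the first rejecting kidney was left to compare. Collecting duct-like cells had a log2 fold change of -2.83 for Fcer1g (FDR = 0.142), where 0.0183% of 10903 genes passed and 22.9% had both tolerized kidneys below both rejecting kidneys. Of these cells, 6 and 42 had no UMI of the 7 myeloid genes under rejection, against 73 and 274 in tolerized kidneys. In them the lowest FDR of the 2 genes tested was 0.908. The ratio of Fcer1g to C1q UMIs was 1.36 and 2.35 times that of macrophage-like cells in rejecting kidneys. In tolerized kidneys it was 1.96 and 1.46 times. The cause was not tested. Fcer1g in distal convoluted tubule-like cells was 82.3 and 14.7 against 25.1 and 13.1 CPM (log2 fold change -1.36, FDR = 0.579), where 0.0292% of genes passed. Fcer1g passed without the second rejecting kidney in loop of Henle-like (FDR = 0.000476, with 144 genes passing in all), distal convoluted tubule-like (FDR = 0.00259, 168 genes), and collecting duct-like cells (FDR = 0.00165, 91 genes), as did Fcgr3 in the distal convoluted tubule, whereas without the first rejecting kidney the lowest FDR of the 6 genes in the 4 tubular classes was 0.704.

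Fcgrt was found in macrophage-like, dendritic cell-like, tubular, and endothelium-like cells. It was 177 and 185 CPM in rejecting and 206 and 170 CPM in tolerized macrophage-like cells, and 32 and 33.3 against 54.5 and 40.7 CPM in monocyte-like cells. The log2 fold change in monocyte-like cells was 0.59 (SE 0.22, unadjusted p = 0.0236, FDR = 0.633), and in macrophage-like cells 0.13. In every kidney the level in macrophage-like cells was above that in monocyte-like cells.

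In proximal tubule-like cells Fcgrt was 118 and 107 CPM in naive kidneys, 70.1 and 71.9 CPM in rejecting kidneys, and 74.1 and 64.2 CPM in tolerized kidneys. In endothelium-like cells it was 104 and 107 CPM in naive, 53.9 and 53.9 CPM in rejecting, and 76.6 and 61.2 CPM in tolerized kidneys. Both naive kidneys were above all transplanted kidneys in both classes, at 1.60 and 1.72 times the mean of the transplanted kidneys. The same ratio was 1.49 in the loop of Henle and 1.41 in the collecting duct, again with no overlap, and 1.02 in the distal convoluted tubule, where the kidneys overlapped. How many of all genes lay apart between naive and transplanted kidneys was not counted. Nearly all naive proximal tubule-like cells lay in clusters that held almost no cells of the transplanted kidneys. Strain, stated age, the genes listed, the lowest UMI count of a kept cell, and transplantation all differ between these kidneys and cannot be told apart. That count was 1538 and 1342 in naive kidneys against 500 to 502 in transplanted kidneys. The naive kidneys shared 111 barcodes with each other and 0 to 4 with a transplanted kidney. The donors were male or female, and their sex is not given per kidney. Tolerized over rejecting, the log2 fold change was 0.21 in the proximal tubule (FDR = 0.736) and 0.37 in endothelium (FDR = 0.943), where 0.0% of 8562 genes passed. B2m, the partner chain of FcRn, had a log2 fold change of -0.04 in macrophage-like cells.

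Other genes of the pathway were counted from lists. The 10 interferon-gamma targets were all lower in tolerized than in rejecting macrophage-like cells, with a median log2 fold change of -0.42 against -0.0048 over all genes, 5 of them at an unadjusted p under 0.05, where 5.84% of all genes were, and none past the FDR. Gbp5 was 142 and 110 against 49.7 and 72.8 CPM (log2 fold change -0.97), and Cxcl10 was 878 and 681 against 343 and 552 CPM (-0.72). In monocyte-like cells all 10 were again lower, with a median of -0.71 against 0.0035 over all genes, 7 at an unadjusted p under 0.05, where 7.16% of all genes were, and none past the FDR. There Gbp5 was 321 and 324 against 156 and 85.6 CPM (log2 fold change -1.37), and Gbp2 was 1148 and 1338 against 656 and 414 CPM (-1.18). Of all list genes, only Cxcl9 passed the FDR, in loop of Henle-like cells, where 0.465% of 9675 genes passed. All 10 targets were lower in tolerized loop of Henle-like cells, 8 of them at an unadjusted p under 0.05, as for 689 of all genes. All 10 were also lower in the other tubular classes and in endothelium-like cells. Both directions were seen in the other immune classes. There 3 were higher and 7 lower in dendritic cell-like, 2 and 8 in B cell-like, and 4 and 6 in T cell-like cells. In NK cell-like cells 8 were tested, with 2 higher and 6 lower.

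The downstream signaling genes were counted in the same way. Of 10 kinases and linkers of activating Fc receptors, 3 were higher and 7 lower in tolerized macrophage-like cells, with a median log2 fold change of -0.12, and none had an unadjusted p under 0.05. Of 5 inhibitory signaling genes 2 were higher and 3 lower, with none at an unadjusted p under 0.05. The activation chain genes Tyrobp and Hcst had log2 fold changes of 0.27 and 0.34 in macrophage-like cells and 0.22 and 0.40 in monocyte-like cells. Among other Fc receptors and their relatives, 5 of 13 could be tested in macrophage-like cells. Of these, Fcrls, an Fc receptor-like gene, was 3.16 and 3.04 CPM in rejecting and 11.6 and 6.60 CPM in tolerized kidneys (log2 fold change 1.66, SE 0.33, FDR = 0.612). Pigr, the transporter of IgA and IgM in epithelium, had a log2 fold change of 1.22 beside proximal tubule markers of 412 and 107 CPM in rejecting and 564 and 1985 CPM in tolerized macrophage-like cells. Of 8 antibody heavy chains, 6 could be tested in macrophage-like cells. In tolerized kidneys 2 were higher and 4 lower, 2 of the latter at an unadjusted p under 0.05 and none past the FDR. The IgG heavy chain Ighg1, a ligand, gave 19 and 38 UMIs in rejecting kidneys and 0 in both tolerized kidneys. There 3 UMIs would be 0.200 and 0.682 CPM. Ighg1 entered the test through its counts in rejecting kidneys alone, and 24.3% of all genes had a gap in this direction.

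The genes most like each receptor over 44 sums of class and kidney, among 12176 genes, were mostly myeloid genes. Sums of 1 kidney share a library, and the values describe likeness over classes of cells. Fcgr1 was most like Hk3 (Pearson r = 0.978), Clec4a3 (0.975), and Lyz2 (0.969), and Fcgr4 was most like Lyz2 (0.971), Adgre1 (0.966), and Clec4a2 (0.965). Fcgr3 was most like Lair1 (0.960), Fcgr4 (0.956), and Cx3cr1 (0.950), and Fcgr2b like Apobec1 (0.950), Lacc1 (0.912), and Nlrc4 (0.909). Fcer1g was most like Tyrobp (0.974), the other activation chain of myeloid and NK cells, then Ccr2 (0.971) and Myo1f (0.963). Fcgrt had the weakest likeness, to Tns3 (0.870), Tmem176b (0.856), and Tctex1d2 (0.855).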

How the data were processed

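One library per kidney was sequenced from dissociated cells of 6 kidneys, 2 per group. The authors deposited raw UMI counts per gene and barcode, without normalization, and the submitters' processing notes name bcl2fastq, Cell Ranger, and mm10. The matrices of the transplanted kidneys list 31053 genes and those of the naive kidneys 28692, and 28208 were shared. Kidneys were grouped by their labels.

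Barcodes had to hold 500 UMIs and 250 genes or more, with a mitochondrial share of no more than 50%, which left 49797. Scrublet (scanpy 1.11.5), run on each kidney, marked 440 of them by its own threshold, and a rate of 0.8% for every 1000 barcodes was used in its place, starting from the highest score. Called doublets took part in clustering and were then left out. Clusters came from 2500 variable genes without the Fc receptor genes, with 40 components, 20 neighbors per cell, and leidenalg 0.10.2 at a resolution of 1.5, and were named from at least 3 markers. Barcodes shared between libraries numbered 111 for the naive pair, 18 to 35 for pairs of transplanted kidneys, and 0 to 4 for a naive with a transplanted kidney. For each class the UMIs of a kidney were added up, and edgeR 4.0.16 (R 4.3.3) was run after filterByExpr and TMM scaling, on the 4 transplanted kidneys for immune classes and on all 6 for tubular and endothelial classes. DESeq2 1.42.0 was an alternative. An FDR under 0.05 was called. Shares of 2 against 2 kidneys were compared with two-sided exact permutation tests. Promoters came from RefSeq on GRCm38.p6, and all 6 genes were matched.

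Named genes were the 6 receptors, the list gene past the FDR, list genes among the 2 with the largest change, and the 3 genes most like each receptor. Likeness was the Pearson r of log2(CPM + 1). Not every list gene with a large change is named, and for the downstream signaling genes counts alone are given. The receptors, markers, and lists were chosen with earlier results of these data known. Fits within clusters, the limit of 3 Fcer1g UMIs, the genes compared with it, and the crossed block were added after the data were seen. Precision is limited by 2 kidneys per group.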

Additional observations from a re-analysis of the deposited data

Results flagged for a closer look

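The level of Fcer1g, the signaling chain, differed in opposite directions in 4 classes of cells, with both tolerized kidneys on the same side of both rejecting kidneys, and passed the FDR in none of them. The log2 ratio of the mean level in tolerized kidneys to that in rejecting kidneys was 0.093 in monocyte-like cells and 0.75 in T cell-like cells, where the tolerized kidneys were higher, as for 15.8% and 12.3% of all genes. It was -1.92 in loop of Henle-like and -2.90 in collecting duct-like cells, where they were lower, as for 18.5% and 22.9% of all genes. Of the tubular classes, the summed level of macrophage markers is given above for the loop of Henle alone. For the collecting duct the ratio of Fcer1g to C1q UMIs is given above. Classes with a mean level of at least 10 CPM were compared. The difference between classes was not tested, and each kidney gives 1 library to all of its classes.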

How the results depend on the processing

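Over 26 pairs of gene and class, 346 values under alternatives gave the same direction and call in 303, a call in 17 that had none, the opposite direction in 26, and a lost call in 0. Of the 6 genes over 11 classes, 0 pairs passed as reported, 9 without a filter on low counts, 2 with a replicate block, 1 with doublets kept, and 0 to 6 without 1 kidney (6 without the second rejecting kidney and 2 without either tolerized kidney). Over all genes 64 passed as reported, 512 by DESeq2, 2851 without a filter, 228 with the replicate block, 102 with doublets kept, 31 with at most 20% mitochondrial UMIs, and 272 to 1168 without 1 kidney. In the 6 immune classes 189 passed with all 6 kidneys fitted against 14, and 1 in T cell-like cells without a UMI of an NK cell gene against 0. The cause was not tested.

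Leaving out 1 kidney turned the sign of several log2 fold changes that had no call. Those of Fcgr2b ranged from -0.29 to 0.35 in macrophage-like, -0.36 to 0.41 in monocyte-like, -0.18 to 1.05 in dendritic cell-like, -0.56 to 0.34 in B cell-like, and -0.055 to 0.41 in proximal tubule-like cells. Those of Fcgr3 ranged from -0.19 to 0.028 in macrophage-like, -0.059 to 0.79 in dendritic cell-like, and -0.19 to 0.35 in NK cell-like cells. Those of Fcgr4 ranged from -0.46 to 0.21 in macrophage-like and -0.15 to 0.23 in monocyte-like cells. Those of Fcer1g ranged from -0.087 to 0.15 in macrophage-like and -2.09 to 0.26 in B cell-like cells. Fcgr2b in macrophage-like cells was at 0.00088 with doublets kept and 0.0024 at a resolution of 0.8, Fcgr3 in dendritic cell-like cells at -0.016 at a resolution of 0.8, Fcgrt in proximal tubule-like cells at -0.0011 with at most 20% mitochondrial UMIs, and Fcer1g in the Tcf7-led T cell-like cluster at -1.67 without cells that had a UMI of an NK cell gene. Fcgr1 kept its sign under all 13 alternatives in each of macrophage-like cells (-0.57 to -0.37) and monocyte-like cells (-0.85 to -0.60), with an FDR of 0.125 or more. The FDR of Fcer1g in T cell-like cells ranged from 0.116 to 0.795. The Fcgr2b share of Fc-gamma receptor UMIs, tolerized minus rejecting, ranged without 1 kidney from -1.72 to 5.35 percentage points in macrophage-like, -1.41 to 5.10 in monocyte-like, and -1.97 to 14.4 in dendritic cell-like cells.

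The share of cells with a Fcgr1 UMI, tolerized minus rejecting, was -9.20 percentage points in macrophage-like cells thinned to 1000 UMIs, -5.50 thinned to 500 UMIs, and -3.85 not thinned, and in monocyte-like cells -7.72, -4.24, and -5.11. Tolerized cells held more UMIs per cell.

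The labels number the kidneys of each group without saying that a number marks a pair or 1 of the 2 experiments of the study. With the replicate block, Fcgr2b was at 0.020 in macrophage-like and 0.0063 in monocyte-like cells, and Fcer1g passed in loop of Henle-like (FDR = 0.000965), collecting duct-like (FDR = 0.0175), and Cd8b1-led T cell-like cells (FDR = 0.00437). Kidneys with the same number correlated at -0.17, -0.15, and -0.12 in macrophage-like, monocyte-like, and T cell-like cells. With crossed numbers, added after the data were seen, 153 genes passed in these classes against 0, none of them among the 6 receptors. In loop of Henle-like, collecting duct-like, and Cd8b1-led T cell-like cells the same-number correlations were 0.034, 0.085, and -0.0099. With crossed numbers Fcer1g passed in the Cd8b1-led cluster (FDR = 0.00041). It also passed in the Foxp3-led cluster (FDR = 0.0415), where it was lower in tolerized kidneys.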

Other observations

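Smaller immune classes also held Fc receptor genes and were not compared between the groups. Neutrophil-like cells, 35 to 43 per transplanted kidney, had Fcgr3 at 301 and 453 CPM in rejecting kidneys against 422 and 457 CPM in tolerized kidneys, and Fcgr4 at 285 and 128 against 151 and 192 CPM. Mast cell or basophil-like cells, 44 and 25 in rejecting kidneys against 42 and 4 in tolerized kidneys, had Fcer1g at 2367 and 1885 against 2409 and 2562 CPM, beside Fcgr3 at 224 and 326 against 239 and 260 CPM and Fcgr2b at 131 and 99.2 against 84.6 and 37.1 CPM. Fcgr1 gave 0 CPM in them in all 4 kidneys. Plasmacytoid dendritic cell-like cells, 22 to 45 per transplanted kidney, had Fcer1g at 846 and 968 against 1039 and 905 CPM and few UMIs of the Fc-gamma receptors. Plasma cell-like cells numbered 11 and 50 in rejecting kidneys against 1 and 66 in tolerized kidneys, and Fcgr2b, the inhibitory receptor of the B lineage, was 87.4 and 35.9 against 81.8 and 57.4 CPM there. Cycling macrophage-like cells, 50 and 104 in rejecting kidneys against 9 and 25 in tolerized kidneys, had Fcgr1 at 273 and 284 against 258 and 124 CPM.

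The IgG heavy chain Ighg1 was counted in plasma cell-like cells at 14 and 4140 UMIs under rejection against 0 and 1855 UMIs in the tolerized kidneys, from the cell numbers just given.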
